A study of Mus musculus with 8 samples.

Results

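Amino acid and peptide transporter genes were examined in leukaemic granulocyte-macrophage progenitors (L-GMP) with and without a knockout of Dek, which encodes a chromatin protein. The genes were taken by symbol from the solute carrier families Slc1, Slc3, Slc6, Slc7, Slc15, Slc36, Slc38 and Slc43, which gave 66 of the 55291 genes in the deposited count table. The rule itself used no measured value, but the genes were chosen with earlier results of these data known. The cells came from bone marrow of mice in which the fusion oncogene MLL-AF9 drives acute myeloid leukaemia, and are labelled as leukaemia stem cells. The sort kept cells with c-Kit, CD34 and CD16/32 at the surface and without Sca-1 or lineage antigens. The control group, FL, carried floxed Dek alleles alone (Dekfl/fl), and the knockout group, KO, carried the same alleles with MX1-Cre, a Cre transgene under the interferon-inducible Mx1 promoter. Both groups carried MLL-AF9 and the floxed alleles, each had 4 libraries, and no age, Cre induction or time is given in the labels. Only KO mice carried Cre, so Dek loss and an effect of the transgene cannot be told apart. Whether each library had its own mouse is not in the labels. P-values therefore reflect how these libraries vary, and that variation may be technical.

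Amino acids enter cells through carriers that differ in their cargo and in what drives them. Sodium-coupled carriers such as Slc1a5, Slc38a1 and Slc38a2 bring in glutamine and other neutral amino acids, exchangers of the Slc7 family trade one amino acid for another, and several of these exchangers reach the cell surface only when bound to the heavy chain Slc3a2, known on leukocytes as the CD98 heavy chain. Carriers of the Slc15 family take up dipeptides and tripeptides with protons, and Slc36a1, Slc38a7, Slc38a9 and Slc15a4 sit in the lysosome, where Slc38a9 signals arginine to the growth kinase mTORC1. In leukaemia, glutamine uptake by Slc1a5 and leucine uptake by Slc7a5 with Slc3a2 are known to feed growth.

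The FL libraries held 44086524 to 58660705 counts each and the KO libraries 33941940 to 49736592. TMM scaling factors, which correct for library composition, ranged from 0.682 to 0.912 for FL and from 1.20 to 1.26 for KO, and 24125 to 26053 genes had a read in FL against 30606 to 37801 in KO. Dek was at 129, 137, 163 and 178 CPM (counts scaled to library size, with TMM factors) in FL and 21.2, 21.4, 31 and 16.7 CPM in KO, with no overlap (log2 fold change of -2.75 with an SE of 0.19, adjusted p = 1.7e-05). Dek shares 15.9% of its exonic bases with Kdm1b on the opposite strand, which averaged 11.5 CPM in KO and was not called. The part of shared reads in the remaining Dek level of KO was not tested. All 9 transcripts listed for the sort and for granulocyte-macrophage progenitors were detected, but 5 of them differed between the groups: Kit and Ly6a rose, and Cd34, Fcgr3 and Ctsg fell. Kit went from 91.1 to 154 CPM on average (log2 fold change of 0.75 with an SE of 0.16, adjusted p = 0.0061) and Cd34 from 709.9 to 461 CPM (log2 fold change of -0.62 with an SE of 0.13, adjusted p = 0.0056). Ly6a, which encodes Sca-1, an antigen the sort excludes, was at 0.244, 0.224, 0.198 and 0.70 CPM in FL and 1.73, 2.71, 0.583 and 1.52 CPM in KO (log2 fold change of 2.26 with an SE of 0.54, adjusted p = 0.01). Markers of other cells moved with the groups: the summed level of 8 eosinophil genes was 121 to 227 CPM in FL and 287 to 1345 CPM in KO, highest in KO replicates 2 and 3, with 5 of 7 tested members called higher and 1 lower. That of 8 mast cell and basophil genes was 182 to 348 CPM in FL and 84.6 to 121 CPM in KO, with 1 called higher and 2 lower of 5 tested. The gap was mainly that of Cpa3, which went from 132 to 5.03 CPM on average. Gata2 also fell, Ms4a2 rose from 0.775 to 2.75 CPM, and Mcpt8 and Hdc were not called. Prss34, not tested, had 786 reads in KO replicate 4 and 0 in every FL library. The summed level of 9 late neutrophil genes was 165 to 793 CPM in FL and 198 to 2525 CPM in KO, with KO replicate 3 the highest. Of these 9, Retnlg and Mmp9 rose by 3.72 and 1.73 and Mmp8 fell by 1.84 on the log2 scale, while S100a8, S100a9, Camp and Ngp, which make up most of the sum in every library but FL replicate 3, were not called. The 8 monocyte and macrophage genes summed to 1111 to 1721 CPM in FL and 1223 to 1971 CPM in KO, with 2 called higher and 3 lower of 7 tested. Erythroid (at most 22.1 CPM), megakaryocyte (at most 13.9 CPM) and T and NK cell (at most 2.88 CPM) genes were low in every library, and the B cell and stromal sums came mainly from Cd79b and Pecam1, with the other 5 markers of each list under 1 CPM on average over the 8 libraries. Called in these lists were 2 erythroid genes higher, 1 megakaryocyte gene higher and 1 lower, 1 T and NK cell gene higher, 1 B cell gene higher and 1 lower, and 1 stromal gene higher. No listed marker was at 0 in all libraries, and the part of these cells in the results below was not tested. In these bulk libraries fewer cells of a type and less RNA per cell cannot be told apart.

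Of the 66 transporter genes, 35 had enough counts to be tested. In KO 6 of them fell (Slc15a2, Slc1a3, Slc1a5, Slc3a2, Slc6a6 and Slc7a1), 3 rose (Slc43a1, Slc7a4 and Slc3a1) and 26 were not called, at an adjusted p under 0.05 (edgeR quasi-likelihood, Benjamini-Hochberg over 17418 genes). Of the rises, that of Slc3a1 passed the count filter only through its KO reads. Over all tested genes 27.9% were called, 14.9% lower and 13% higher, so the shares of the tested transporters, 17.1% lower and 8.57% higher, lie near the background. Their median log2 fold change was -0.07, against 0.05 over all tested genes. The groups did not overlap for 4 transporters that were lower in KO and 4 that were higher, against 15.8% and 15.1% of all tested genes. The count of falls depends on the scaling. When libraries were scaled by total counts alone, the median of all tested genes moved to 0.64 and that of the transporters to 0.52, and 2 transporters were lower and 18 higher, where 5.09% and 51.7% of all tested genes were. Slc15a2 and Slc1a3 were the 2 that stayed called as lower, and Slc43a1, Slc7a4 and Slc3a1 stayed called as higher. When the count of detected genes entered the fit as a covariate, which follows the groups closely, Slc15a2 and Slc1a3 alone were called, beside 1.18% of all genes. Without KO replicates 2 and 3 the calls were those of Slc15a2, Slc1a5 and Slc1a3, beside 12.8% of all genes. For reading the single alternatives below, the share of all genes called was 32.5% by DESeq2, 32.6% by limma-voom, 24.9% with the replicate block and 31.4% under the stricter filter of 5 CPM in 4 libraries. With 1 library left out it was 24.2%, 25.7%, 22.6% and 27.1% without FL replicates 1 to 4 in turn, and 22.4%, 19.1%, 24.3% and 25.9% without KO replicates 1 to 4.

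**Figure D1:**
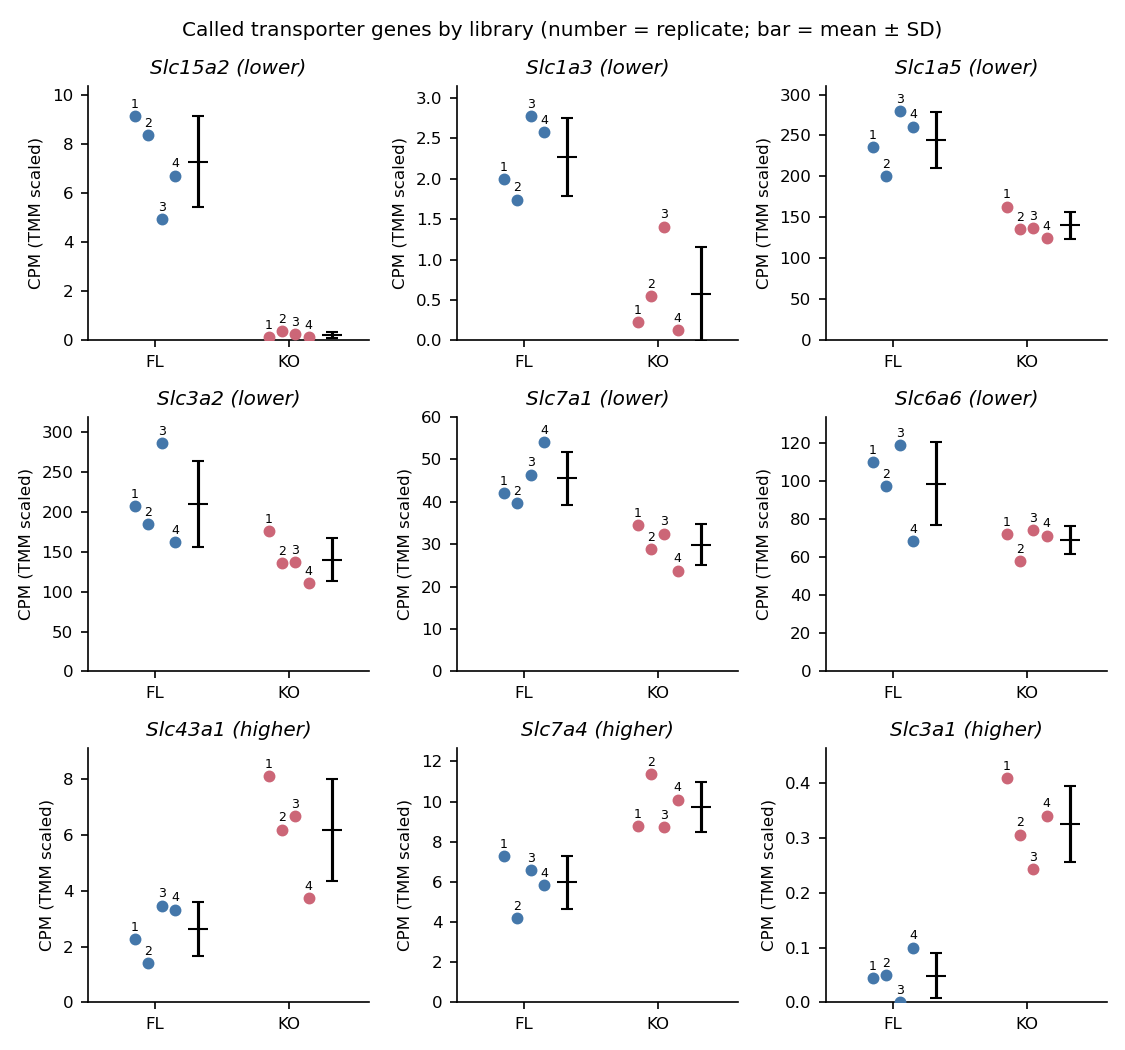
CPM (TMM scaled, y axis from 0) of the 9 called transporter genes in each of the 4 FL and 4 KO libraries; numbers mark replicates and bars show mean ± SD, cut at 0 where they cross it. The groups do not overlap for Slc15a2, Slc1a3, Slc1a5, Slc7a1, Slc43a1, Slc7a4 and Slc3a1, and overlap for Slc3a2 and Slc6a6.

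**Figure D2:**
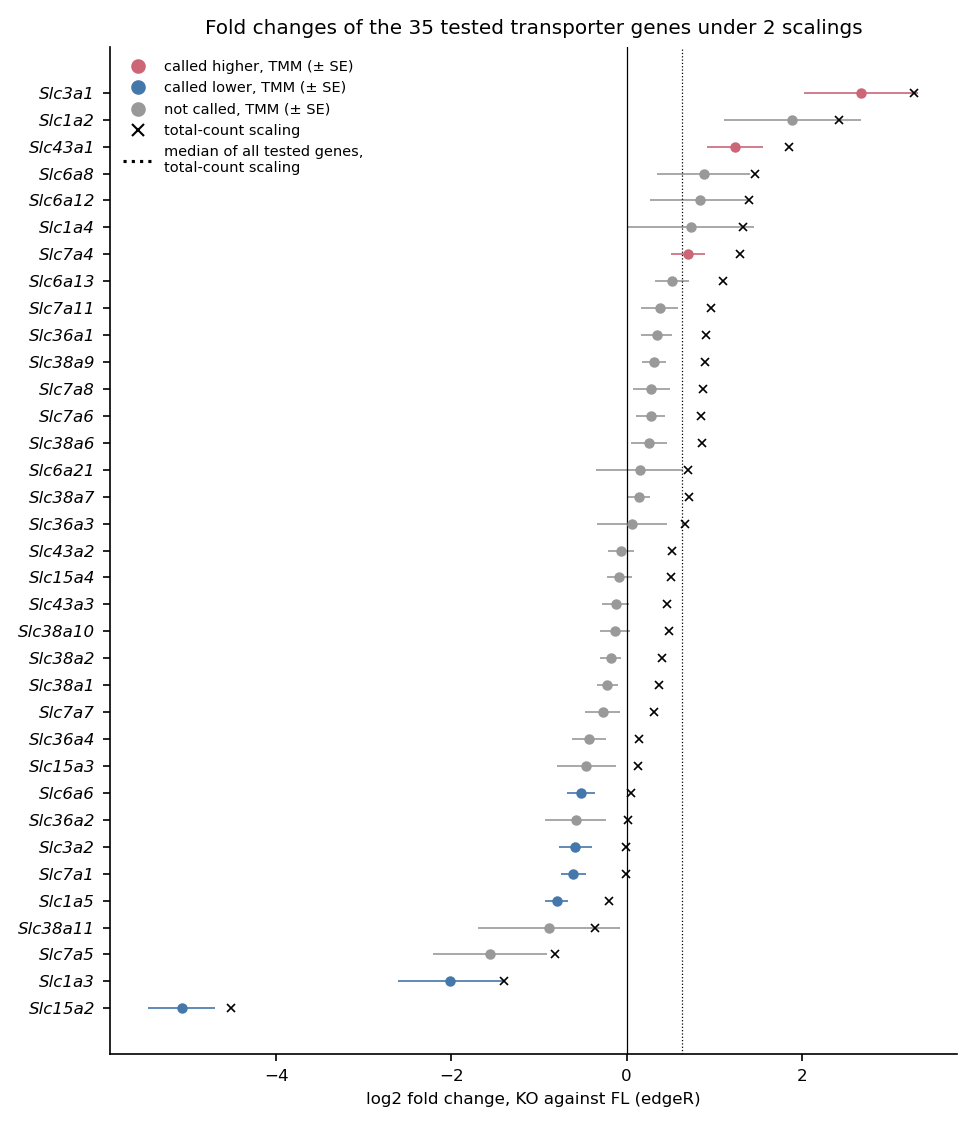
Log2 fold change of KO against FL (x axis) for the 35 tested transporter genes: circles with SE bars under TMM scaling, crosses under total-count scaling, and a dotted line at the median of all tested genes under the latter (0.64). Slc15a2 and Slc1a3 lie lowest under both, and the falls of Slc1a5, Slc7a1, Slc3a2 and Slc6a6 sit near 0 under total-count scaling.

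The largest change among the transporters was the fall of Slc15a2, which encodes the high-affinity proton-coupled carrier of dipeptides and tripeptides. It was at 9.14, 8.39, 4.96 and 6.72 CPM in the 4 FL libraries and at 0.13, 0.371, 0.243 and 0.13 CPM in the 4 KO libraries. In reads, these were 412, 337, 200 and 269 against 7, 17, 10 and 8. Every KO library was far below the lowest FL library, FL replicate 3. The mean went from 7.3 ± 1.86 to 0.218 ± 0.115 CPM (SD, n = 4 each), 33.9-fold lower by the fit (log2 fold change of -5.08 with an SE of 0.38, adjusted p = 2.7e-05). Slc15a2 was called in all 16 alternative analyses in which it was tested, with log2 fold changes of -6.75 to -4.51. The gene lies on chromosome 16 from 36750177 to 36784962 (mm10), on the minus strand, and shares no exonic base with another annotated gene.

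No other tested gene of the Slc15 family was called. Slc15a4, a lysosomal carrier of histidine and peptides that endosomal Toll-like receptors depend on, was the most abundant of the family, at 63.6, 48.6, 45.7 and 61.4 CPM in FL and 59.3, 43, 55.1 and 49.7 CPM in KO. These groups overlapped (log2 fold change of -0.08 with an SE of 0.14, adjusted p = 0.7). Slc15a3, its lysosomal relative, was at 0.62 to 1.02 CPM in FL and 0.461 to 0.875 CPM in KO (log2 fold change of -0.46 with an SE of 0.34, adjusted p = 0.34), and the fitted change was 0.13 under total-count scaling. It shares 28.1% of its exonic bases with Tmem132a on the opposite strand, and the strand setting of the counting is not given in the sources used here. Slc15a1, the intestinal peptide carrier, had 4, 4, 2 and 2 reads in FL and 3, 10, 22 and 3 in KO, and Slc15a5 had 2, 0, 0 and 0 against 20, 17, 5 and 1. Both were below the count filter and were not tested.

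Promoter windows from RefSeq (build GRCm38.p6, from 250 bases before to 50 after the annotated start, 5′ to 3′ on the gene's strand) were available for 47 of the 66 transporter genes. They were searched on both strands for TGATGNAA, the core of the element bound by ATF4 with C/EBP proteins in amino acid response genes, and for TGATTNAT, a core of PBX and HOX composite sites, since Pbx3 is named in the study's title. The motifs differ at the fifth letter, so the same start on 1 strand cannot match both. The windows of Slc15a2, Slc1a3 and Slc43a1 are shown because these genes had the largest called changes among transporters above 1 CPM, with capitals reserved for motif matches, of which these windows hold none.
Slc15a2 (chr16:36784913-36785212, minus strand): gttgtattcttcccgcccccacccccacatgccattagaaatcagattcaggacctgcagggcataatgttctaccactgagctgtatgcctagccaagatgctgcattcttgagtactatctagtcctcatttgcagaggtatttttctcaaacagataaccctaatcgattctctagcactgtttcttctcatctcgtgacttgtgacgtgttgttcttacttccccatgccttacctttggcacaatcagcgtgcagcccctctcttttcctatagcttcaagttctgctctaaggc
Slc1a3 (chr15:8710758-8711057, minus strand): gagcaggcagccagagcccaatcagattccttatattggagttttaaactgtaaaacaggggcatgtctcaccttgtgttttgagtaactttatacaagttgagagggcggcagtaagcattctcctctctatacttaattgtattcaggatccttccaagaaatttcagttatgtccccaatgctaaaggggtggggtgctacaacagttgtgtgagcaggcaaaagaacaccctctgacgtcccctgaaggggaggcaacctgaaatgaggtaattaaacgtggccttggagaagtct
Slc43a1 (chr2:84840073-84840372, plus strand): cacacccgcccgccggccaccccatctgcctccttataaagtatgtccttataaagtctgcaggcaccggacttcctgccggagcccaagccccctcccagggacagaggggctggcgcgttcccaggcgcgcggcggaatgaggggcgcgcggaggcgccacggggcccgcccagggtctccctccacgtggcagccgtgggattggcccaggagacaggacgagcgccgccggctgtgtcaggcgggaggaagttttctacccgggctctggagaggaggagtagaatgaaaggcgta
The windows of Slc15a2, Slc1a3 and Slc43a1 had 5, 3 and 26 CpG dinucleotides and a GC content of 46.3%, 45.3% and 67.7%. Among the other called genes with a window, Slc3a1, which rose, had 7 CpGs. Of those that fell, Slc3a2 had 15 CpGs and the windows of Slc7a1 had 7 and 27. So few genes cannot show whether CpG content follows direction. The median over all 32851 windows was 7 CpGs and 52.7% GC. The ATF4 core was found for 5 of the 47 transporter genes (10.6%) against 4.51% of all 27025 genes with a window, and the PBX and HOX core for 3 (6.38%) against 3.74%. The 3 holders of the latter, Slc6a5, Slc6a9 and Slc7a15, were below the count filter. A gene counted as a holder when any of its windows matched. The 47 transporter genes had 68 windows against 32851 for the 27025 genes, so more windows per gene, and the shares are not on equal footing.

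Among the Slc1 carriers, the glutamine carrier and the glial glutamate carrier both fell. Slc1a5, a sodium-dependent exchanger of neutral amino acids, was at 236, 200.4, 279.6 and 261 CPM in FL and 163, 136, 137 and 125 CPM in KO. The highest KO library, replicate 1, stayed below the lowest FL library, replicate 2. The mean fell from 244 ± 34.2 to 140.3 ± 16.1 CPM (SD, n = 4 each; log2 fold change of -0.80 with an SE of 0.13, adjusted p = 0.0015). The call held with each library left out and was lost under total-count scaling (-0.20, adjusted p = 0.23) and in the fit with the detected-gene covariate (-0.66, adjusted p = 0.35). Slc1a3, a high-affinity glutamate and aspartate carrier best known from astrocytes, was at 2.0, 1.74, 2.78 and 2.57 CPM in FL and 0.223, 0.546, 1.41 and 0.13 CPM in KO. KO replicate 3 lay closest to FL and replicate 4 farthest, with no overlap. Its mean went from 2.27 ± 0.484 to 0.577 ± 0.582 CPM (SD, n = 4 each; log2 fold change of -2.01 with an SE of 0.59, adjusted p = 0.028). Leaving out FL replicate 3 ended the call (adjusted p = 0.064), as did leaving out KO replicate 1 (adjusted p = 0.063) or 2 (adjusted p = 0.07). The log2 fold change was -2.95 without KO replicate 3, -3.68 without KO replicates 2 and 3, and -5.97 in the detected-gene covariate fit, where it was called. Slc1a4, a serine and alanine exchanger, was at 0.0444, 0.249, 0.868 and 0.10 CPM in FL and 0.483, 0.742, 0.534 and 0.34 CPM in KO and was not called (log2 fold change of 0.73 with an SE of 0.72, adjusted p = 0.48). Slc1a2, another glutamate carrier, was under 1 CPM in every library and not called (adjusted p = 0.095).

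Both heavy chains were called, in opposite directions and at very different levels, Slc3a1 on few reads. Slc3a2, the partner of most surface exchangers of the Slc7 family, was at 207, 185, 286 and 162 CPM in FL and 176, 136, 137 and 111 CPM in KO. KO replicate 1 lay above FL replicate 4, so the groups overlapped. The mean fell from 210.1 ± 54.2 to 139.9 ± 27.1 CPM (SD, n = 4 each; log2 fold change of -0.59 with an SE of 0.19, adjusted p = 0.04). Leaving out FL replicate 1, FL replicate 3 or any KO library but the first ended the call (adjusted p 0.061 to 0.098). So did the stricter count filter and the covariate, and under total-count scaling the log2 fold change was -0.0049 (adjusted p = 0.98). Slc3a1, the heavy chain of the cystine carrier of kidney and gut, was at 0.0444, 0.0498, 0 and 0.10 CPM in FL and 0.409, 0.306, 0.243 and 0.34 CPM in KO, or 2, 2, 0 and 4 against 22, 14, 10 and 21 reads. Every KO library was above every FL library, though with few FL reads behind the fold (log2 fold change of 2.68 with an SE of 0.65, adjusted p = 0.011). The FL reads were too few for the count filter, so Slc3a1 was tested only through the KO group, where it was high. All 31 transporters below the filter also had a higher mean in KO, as did 84.1% of untested genes with a read. The rise of Slc3a1 therefore cannot be read as particular to it. The call was lost without KO replicates 2 and 3 (adjusted p = 0.059) and with the covariate (adjusted p = 0.23). Slc3a1 shares 26.5% of its exonic bases with Prepl on the opposite strand, which went from 24.6 ± 5.41 to 17.9 ± 0.804 CPM (log2 fold change of -0.46 with an SE of 0.16, adjusted p = 0.054), and the part of shared reads was not tested.

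The light chains that pair with Slc3a2 were not called, and 1 FL library stood apart. Slc7a5, which exchanges leucine and other large neutral amino acids for glutamine, was at 3.6, 5.3, 8.55 and 39.9 CPM in FL and 6.17, 6.13, 3.96 and 3.18 CPM in KO. FL replicate 4 was the outlier and the other 3 FL libraries overlapped with KO. That library also had the lowest TMM factor (0.682). A single gene, CT010467.1, took 9.39% of its counts, against 2.43% to 4.41% in the other FL libraries. The part of this in the Slc7a5 value was not tested. With all libraries Slc7a5 had a log2 fold change of -1.56 with an SE of 0.65, adjusted p = 0.098, and without FL replicate 4 the log2 fold change was -0.28 (adjusted p = 0.56). It was called as lower without FL replicate 1 (adjusted p = 0.04) and without a count filter (adjusted p = 6.4e-12). Slc7a6, an exchanger of arginine for glutamine, had the highest level per length of the light chains in every library but FL replicate 4, where Slc7a5 was higher and Slc7a6 was 38.3% of the light chain sum. Slc7a6 was at 60.1, 42.8, 51.5 and 41.8 CPM in FL and 61.3, 74.7, 50.3 and 51 CPM in KO (log2 fold change of 0.27 with an SE of 0.16, adjusted p = 0.23). Its relative Slc7a7, which is abundant in monocytes and macrophages, was at 9.4 to 12.4 CPM in FL and 6.09 to 10.9 CPM in KO (log2 fold change of -0.27 with an SE of 0.20, adjusted p = 0.34). Slc7a8, a second leucine exchanger, and Slc7a11, the cystine and glutamate exchanger behind glutathione synthesis, had log2 fold changes of 0.28 and 0.38 (adjusted p = 0.36 and 0.21). Each was called in 1 alternative, higher under total-count scaling (adjusted p = 0.0092 and 0.0076), where 51.7% of all tested genes were. Slc7a6 was also called higher under that scaling (0.86, adjusted p = 0.0030), and Slc7a7 turned to 0.31 without a call. Per kilobase of exonic length, Slc3a2 was 1.92 to 4.70 times the sum of these 5 light chains in FL and 1.74 to 2.77 times in KO, with overlap between the groups.

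Of the Slc7 carriers that need no heavy chain, Slc7a1 fell and Slc7a4 rose. Slc7a1, the main importer of arginine and lysine in many cells, was at 42.1, 39.6, 46.4 and 54.1 CPM in FL and 34.6, 28.9, 32.5 and 23.8 CPM in KO. No KO library reached the lowest FL library, replicate 2. The mean went from 45.6 ± 6.32 to 29.9 ± 4.72 CPM (SD, n = 4 each; log2 fold change of -0.61 with an SE of 0.15, adjusted p = 0.01), a call that held with each single library left out. It was lost without KO replicates 2 and 3 (adjusted p = 0.07) and with the covariate (adjusted p = 0.35), and under total-count scaling the log2 fold change was -0.0010. Slc7a4, a relative of the cationic carriers whose cargo is not settled, was at 7.28, 4.21, 6.57 and 5.85 CPM in FL and 8.77, 11.4, 8.71 and 10.1 CPM in KO. All KO libraries were above all FL libraries (log2 fold change of 0.70 with an SE of 0.20, adjusted p = 0.022). Leaving out KO replicate 2 ended its call (adjusted p = 0.078), as did leaving out KO replicates 2 and 3 together (adjusted p = 0.13), the covariate (adjusted p = 0.45) and the replicate number as a block (adjusted p = 0.054). Slc7a4 shares 13.3% of its exonic bases with P2rx6 on the opposite strand, which averaged 0.242 CPM in KO.

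Slc43a1, a sodium-independent carrier of leucine and other large neutral amino acids, was the clearest rise above 1 CPM. It was at 2.26, 1.42, 3.47 and 3.32 CPM in FL and 8.12, 6.2, 6.68 and 3.73 CPM in KO. KO replicate 4 was the lowest of its group and still above FL replicate 3, the highest of its own. The mean rose from 2.62 ± 0.965 to 6.18 ± 1.83 CPM (SD, n = 4 each), 2.36-fold by the fit (log2 fold change of 1.24 with an SE of 0.32, adjusted p = 0.015). The call held with each single library left out and was lost without KO replicates 2 and 3 (adjusted p = 0.094) and with the covariate (adjusted p = 0.52). Under total-count scaling the log2 fold change was 1.86. Its relative Slc43a2, which carries the same kind of amino acid, was at 17.2 to 21.5 CPM in FL and 14.5 to 20.6 CPM in KO (log2 fold change of -0.07 with an SE of 0.15, adjusted p = 0.77). Slc43a3, which the rule includes although it is known as a carrier of purine nucleobases, was at 85.1 to 104 CPM in FL and 64.9 to 113 CPM in KO (log2 fold change of -0.13 with an SE of 0.15, adjusted p = 0.58). Under total-count scaling the signs of Slc43a2 and Slc43a3 turned, with log2 fold changes of 0.52 and 0.46.

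In the Slc6 family, 5 of 19 genes were tested and 1 was called. Slc6a6, the taurine carrier, was at 110.0, 97.6, 119 and 68.6 CPM in FL and 72, 58, 74.4 and 71.4 CPM in KO. FL replicate 4 lay within the KO range, so the groups overlapped. The mean went from 98.8 ± 22 to 69 ± 7.4 CPM (SD, n = 4 each; log2 fold change of -0.52 with an SE of 0.16, adjusted p = 0.036). Leaving out any 1 library other than FL replicate 4 ended the call (adjusted p 0.052 to 0.11), and under total-count scaling the log2 fold change was 0.05. Slc6a13, a carrier of GABA and taurine, was at 4.48, 5.4, 6.6 and 4.02 CPM in FL and 7.48, 6.92, 7.84 and 7.13 CPM in KO. Every KO library was above every FL library, but the test did not call it (log2 fold change of 0.52 with an SE of 0.19, adjusted p = 0.064). DESeq2 (adjusted p = 0.029) and limma-voom (adjusted p = 0.032) called it higher. The tested members Slc6a8, the creatine carrier, Slc6a12, the betaine carrier, and Slc6a21 averaged under 1 CPM in both groups and were not called.

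The sodium-coupled carriers of the Slc38 family and the proton-coupled carriers of the Slc36 family had 11 tested genes. By edgeR with all libraries and TMM scaling 0 of the 11 were called, beside 27.9% of all tested genes. Of the 11, Slc38a9 and Slc36a4 had an unadjusted p under 0.05. DESeq2 called 0 of the 11 and limma-voom 1. Slc38a1, which takes up glutamine and alanine, was at 241, 246, 243 and 237 CPM in FL and 245, 197, 173 and 215 CPM in KO. KO replicate 1 lay within the narrow FL range and the other 3 KO libraries below it (log2 fold change of -0.22 with an SE of 0.12, adjusted p = 0.19). Slc38a2, which cells raise when amino acids are short, was at 236, 189, 176 and 220.4 CPM in FL and 178, 189, 171 and 187 CPM in KO, with overlap (log2 fold change of -0.18 with an SE of 0.12, adjusted p = 0.27). The lysosomal members Slc38a9, the arginine sensor, Slc38a7, a glutamine exporter, and Slc36a1 had log2 fold changes of 0.31, 0.14 and 0.35 (adjusted p = 0.12, 0.45 and 0.17). Slc36a4 had -0.43 (adjusted p = 0.12) and was called as lower by limma-voom and without FL replicate 3. Slc38a10 and Slc38a6 had log2 fold changes of -0.13 and 0.25 (adjusted p = 0.59 and 0.39). Under total-count scaling Slc38a1, Slc38a2, Slc38a10 and Slc36a4 turned to 0.37, 0.41, 0.48 and 0.14. Called higher there were Slc38a9, Slc36a1, Slc38a7, Slc38a6, Slc38a10 and Slc38a2 (adjusted p 0.0016 to 0.031), beside 51.7% of all tested genes. The remaining tested members, Slc36a2, Slc36a3 and Slc38a11, had log2 fold changes of -0.58, 0.07 and -0.88.

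To set levels of different genes side by side, CPM were divided by the exonic length of each gene in GENCODE M21. In FL the highest level was that of Slc3a2, at 59.5 ± 15.3 CPM per kilobase, next to Slc1a5 at 58.5 ± 8.21 (SD, n = 4 each), which did not differ beyond their spread. Slc38a2, Slc43a3 and Slc38a10 followed at 23.2 ± 3.14, 21.2 ± 1.83 and 20.2 ± 4.75 CPM per kilobase, again within their spread. These 5 genes held 68.1% to 72.5% of the summed level of all 66 genes in FL and 60.8% to 65.9% in KO, so these ranges did not overlap. Their order was the same in KO, with Slc3a2 at 39.7 ± 7.67 and Slc1a5 at 33.6 ± 3.87 CPM per kilobase. Slc15a2, at 0.992 ± 0.253 CPM per kilobase in FL, ranked 21 of 66 there and 53 of 66 in KO. Slc43a1 ranked 24 in FL and 20 in KO. All 66 genes together took 0.105% to 0.138% of the counts in FL and 0.146% to 0.165% in KO, by total counts without TMM factors. With TMM factors their summed level was 1410 to 1631 CPM in FL and 1178 to 1370.4 CPM in KO, the opposite order, so the direction of the sum rests on the scaling. Exonic length counts every annotated exon, including those of transcripts these cells may not use.

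**Figure D3:**
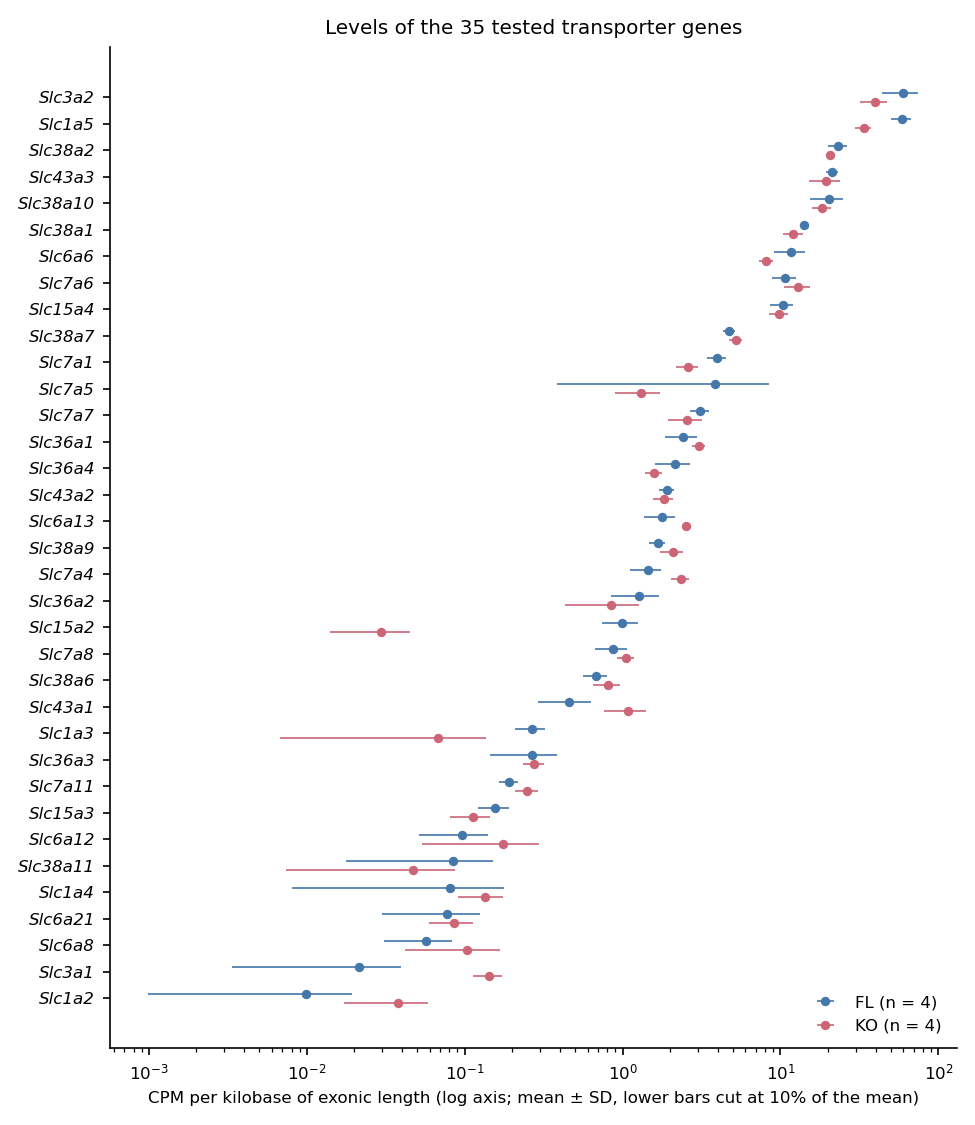
Level of the 35 tested transporter genes in CPM per kilobase of exonic length (log x axis), as mean ± SD of the 4 FL and the 4 KO libraries, ordered by FL. Slc3a2 and Slc1a5 lead in both groups, and Slc15a2 and Slc1a3 show the widest gaps among genes above 0.1 in FL.

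The other 31 transporter genes were below the count filter, among them 14 of the Slc6 family, such as the carriers of noradrenaline (Slc6a2), dopamine (Slc6a3), serotonin (Slc6a4) and glycine (Slc6a9 and Slc6a5). Their mean over the 8 libraries was 0.0247 to 0.329 CPM, and the highest single value was 52 reads, for Slc6a3 in KO replicate 3. All 31 had a higher mean CPM in KO than in FL, as did 84.1% of the 28617 untested genes with a read. In FL 11, 11, 11 and 14 of them had a read, and in KO 27, 31, 31 and 23. Their summed level was 0.688, 0.971, 0.744 and 1.32 CPM in FL and 3.44, 8.30, 10.4 and 1.62 CPM in KO. KO replicates 2 and 3, which also had the most genes detected and the highest eosinophil sums, stood highest, and the part of either in these reads was not tested. In FL 5 of the 31 genes had no read in any library, where a count of 0 allows up to 3 counts, or 0.0666 to 0.0750 CPM per library. Without a count filter edgeR called 9 of the 31 higher and 0 lower, beside 7.92% higher and 6.19% lower of all 46035 genes tested that way. Slc6a4 had 2, 0, 0 and 1 reads in FL and 24, 14, 24 and 6 in KO.

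**Figure D4:**
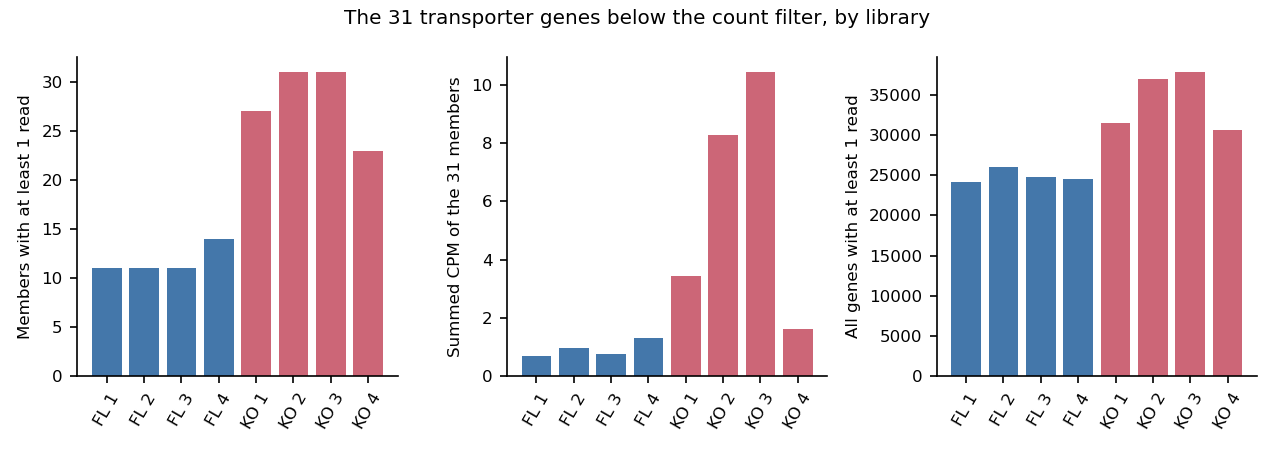
The 31 transporter genes below the count filter in each library: how many had at least 1 read (left), their summed CPM with TMM scaling (middle), and the number of all genes with at least 1 read (right). KO replicates 2 and 3 are highest in all 3 panels.

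Around the carriers, 5 lists of linked genes were read in the same fit. Of 32 genes of the amino acid response, in which the kinase GCN2 and the factor ATF4 raise amino acid uptake and synthesis when supply falls, 6 fell and 2 rose (median log2 fold change -0.09). Psat1, an enzyme of serine synthesis, went from 249.5 ± 56.9 to 82 ± 19.7 CPM (log2 fold change of -1.61 with an SE of 0.20, adjusted p = 3.5e-04). Pycr1, which makes proline, Shmt2, which splits serine in mitochondria, and Eif2s1, the alpha subunit of eIF2, fell by 0.97, 1.32 and 0.61 on the log2 scale (adjusted p = 4.7e-04, 8.7e-04 and 0.001). Under total-count scaling the calls of Pycr1 (-0.39, adjusted p = 0.085) and Eif2s1 (-0.02, adjusted p = 0.89) were lost. Atf4 itself, named after its values were seen, was at 316, 304, 349 and 376 CPM in FL and 264, 205, 214 and 179 CPM in KO, all KO libraries below all FL libraries (log2 fold change of -0.64 with an SE of 0.14, adjusted p = 0.0054). The 2 that rose, also named afterwards, were Eif2ak3, the kinase PERK (log2 fold change of 0.62 with an SE of 0.16, adjusted p = 0.016), and Chac1, which degrades glutathione (log2 fold change of 1.49 with an SE of 0.49, adjusted p = 0.042). Under total-count scaling 16 of this list were higher and 2 lower, with a median of 0.49 beside 0.64 over all tested genes. Psat1 stayed called as lower in all 17 alternatives.

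Transporters whose promoter windows held the ATF4 core were not among those called, where 27.9% of all tested genes were. They were Slc7a11, Slc7a7, Slc1a4, Slc6a21 and Slc15a5, of which Slc15a5 was not tested. The called genes Slc1a5, Slc6a6 and Slc7a4 had no window, so they were not searched. With so few tested holders, the core cannot be set against the calls. The window of Slc7a11 is shown because it held the core on both strands, in capitals, in a gene long known as an ATF4 target.
Slc7a11 (chr3:50443564-50443863, minus strand): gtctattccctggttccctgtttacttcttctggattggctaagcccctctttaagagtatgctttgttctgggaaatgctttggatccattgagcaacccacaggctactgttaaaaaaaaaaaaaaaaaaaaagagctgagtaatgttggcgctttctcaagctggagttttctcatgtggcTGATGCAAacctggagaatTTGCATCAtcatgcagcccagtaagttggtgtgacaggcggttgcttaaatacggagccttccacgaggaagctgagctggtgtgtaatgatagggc
Slc7a11 was at 3.2, 2.61, 2.36 and 2.47 CPM in FL and 2.82, 4.15, 3.67 and 3.23 CPM in KO, with overlap (log2 fold change of 0.38 with an SE of 0.21, adjusted p = 0.21).

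Of 43 genes for amino acid sensing by mTORC1, 7 fell and 5 rose (median 0.02; 26 higher and 1 lower under total-count scaling). Castor1, the cytosolic arginine sensor, was at 1.69, 2.12, 1.49 and 1.77 CPM in FL and 0.26, 0.415, 0.752 and 0.583 CPM in KO. All KO libraries were below all FL libraries (log2 fold change of -1.81 with an SE of 0.35, adjusted p = 0.0034). Mios, a subunit of the GATOR2 complex, and Lamtor5 and Lamtor1, subunits of the Ragulator on the lysosome, fell by 0.58, 0.43 and 0.58 on the log2 scale (adjusted p = 0.0024, 0.0059 and 0.0081), and their values under total-count scaling were 0.0048, 0.16 and 0.0091. Among those that rose, named after their values were seen, were the Rag GTPase genes Rragd and Rraga, the paralogue Castor2 and the lysosomal gene regulator Mitf, by 2.59, 0.41, 0.73 and 1.19 on the log2 scale.

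Of 32 tested enzymes of transported amino acids, 10 fell and 3 rose (median -0.31; 11 higher and 2 lower under total-count scaling, median 0.27). Got1, the cytosolic aspartate aminotransferase, was at 36.9, 34.5, 35.6 and 32.5 CPM in FL and 8.0, 10.1, 13 and 10.2 CPM in KO. The groups lay far apart (log2 fold change of -1.76 with an SE of 0.15, adjusted p = 5.0e-05), and Got1 was called in all 17 alternatives. Got2, its mitochondrial partner, Glud1, which turns glutamate into ketoglutarate, and Mat2a, which makes S-adenosylmethionine from methionine, fell by 1.0, 0.79 and 0.86 (adjusted p = 0.001, 0.0019 and 4.8e-04). Total-count scaling ended the calls of Glud1 (-0.18) and Mat2a (-0.26). The 3 that rose, named after their values were seen, were Cbs, of cysteine synthesis (1.75), the glutaminase gene Gls2 (1.88, at 0.737 CPM in KO) and Gfpt1, of hexosamine synthesis (0.70). Of 16 tested amino acid carriers of other families, 2 rose and 1 fell (median -0.10; 8 higher and 0 lower under total-count scaling). Sfxn1, the mitochondrial serine carrier, fell by 0.47 (adjusted p = 0.0059), the mitochondrial glutamate carrier Slc25a18 and the sideroflexin Sfxn2 rose by 1.78 and 0.42 (adjusted p = 0.029 and 0.031), and the aspartate and glutamate carrier Slc25a13 was not called (0.30, adjusted p = 0.077). The call of Slc25a18 was lost in 8 of 16 alternatives, among them leaving out FL replicate 1, 2 or 3 or KO replicate 1 or 2, and that of Sfxn2 in 10 of 17, among them leaving out any 1 library other than FL replicate 1 and KO replicate 1. Both were lost with the replicate block (adjusted p = 0.086 and 0.069), and Sfxn1 was at 0.12 under total-count scaling.

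Of 17 tested genes of NOD and endosomal Toll-like receptor signalling, which Slc15 carriers are known to serve, 4 fell and 2 rose (median 0.12; 1 lower and 10 higher under total-count scaling). Tlr13, a receptor for bacterial ribosomal RNA, was at 25.4, 21.3, 26.1 and 15.7 CPM in FL and 0.409, 0.939, 0.922 and 4.83 CPM in KO. KO replicate 4 stood apart from the other KO libraries (log2 fold change of -3.61 with an SE of 0.62, adjusted p = 0.0019), and without it the log2 fold change was -4.90. Irf5, a transcription factor of these receptors, and Card9, an adaptor, fell by 1.10 and 0.83 (adjusted p = 0.0046 and 0.0062), and Tlr8 rose by 1.35 (adjusted p = 0.015). The calls of Irf5 and Card9 were lost under total-count scaling (-0.51 and -0.22) and when KO replicates 2 and 3 were left out (adjusted p = 0.067 and 0.059). Except for Psat1 and Got1, the genes named here by smallest p lost their calls, or had none, with genes detected as a covariate. The shares called in the lists, from 18.8% of the other carriers to 40.6% of the enzymes, stand beside 27.9% of all tested genes.

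**Figure D5:**
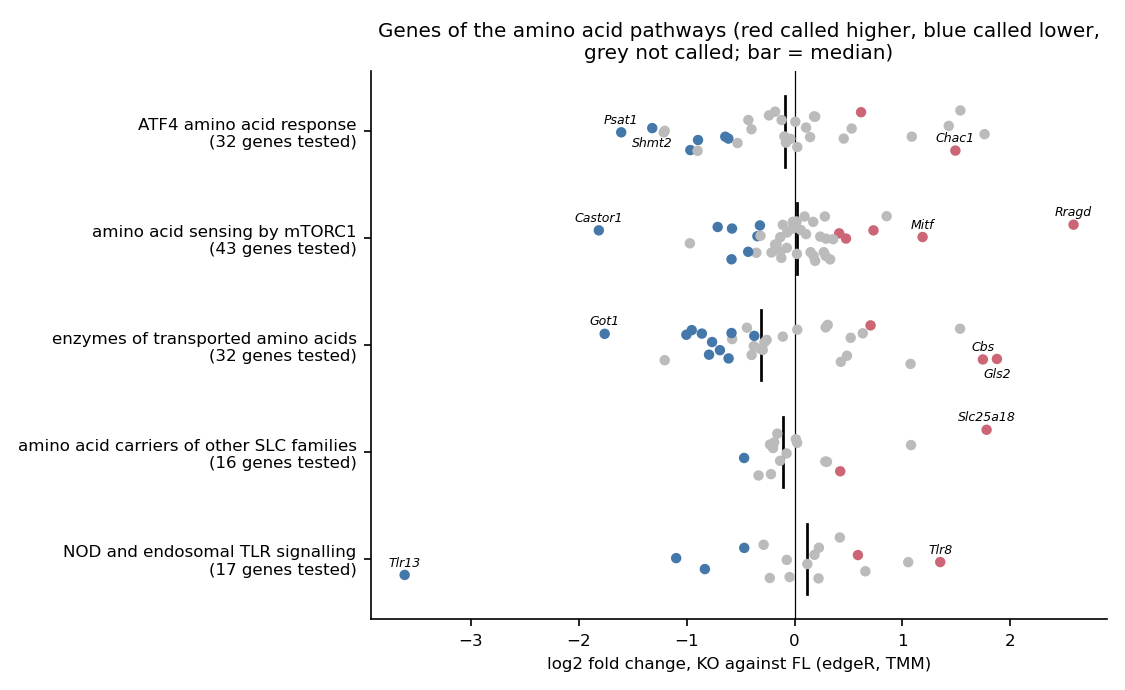
Log2 fold change of KO against FL under TMM scaling (x axis) for each tested gene of the 5 lists (points; vertical position within a list is arbitrary), with the list median as a bar; red genes were called higher, blue lower, grey not called. Tlr13, Castor1, Got1 and Psat1 lie lowest in their lists and Rragd highest in its own.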

How the data were processed

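Total RNA (miRNeasy) was amplified as in Geo-seq and turned into libraries with a TruePrep kit, per the labels' protocols. The deposited values are raw counts for each gene symbol in 1 table. Per the submitters' processing notes the tools were HTSeq 0.13.5, Bowtie 0.12.9 and DESeq2 on mm10, with no role given, while the sheet name of the table names featureCounts. The sources used here give no annotation, strand or multiple-match setting. Without molecular identifiers, PCR copies count too, the limits given for a count of 0 cover counting error only. Columns headed WT were read as FL of the same number, FL being the only control group.

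The fit of KO against FL, 4 libraries a group, used edgeR 4.0.16 (R 4.3.3): filterByExpr, TMM factors, a quasi-likelihood F test without covariate, and Benjamini-Hochberg adjustment over 17418 genes. SE is the log2 fold change over the square root of F. CPM use TMM factors. Positions, lengths and overlaps are those of GENCODE M21 (mm10), where 66 of 66 members were found by symbol. Slc15a4, Slc38a10 and Slc43a2 share 8.04%, 5.72% and 9.18% of their exonic bases with the opposite-strand genes Gm43474, Gm11769 and Gm45606. No library was a copy of another (lowest chi-square per degree of freedom within a group 21.2).

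Members and lists were chosen with earlier results of these data known. Named were called members, members with a mean of 5 CPM or more, the Slc15 and Slc3 genes, Dek and 4 genes per list by smallest p, with others given by value where a family was described. 1 gene of a list is not reported here. Alternatives were DESeq2 1.42.0, limma-voom (limma 3.58.1), RLE factors, total-count scaling, other count filters, the replicate block, genes detected as a covariate, each library left out, and KO replicates 2 and 3 left out. Tests were tried on simulated data (16988 genes, 200 changed), where edgeR called 57% of 2-fold and 92% of 4-fold changes. Of the calls made there, 3.87% were false by edgeR, 19.6% by DESeq2 and 3.21% by limma-voom. The share of false calls was not tested with as many genes changed as the 27.9% called in the deposited data. The changed genes were drawn only from those above a minimum mean count, and no shift in composition between the groups was simulated. These rates therefore do not cover genes with few reads or the choice of scaling.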

Additional observations from a re-analysis of the deposited data

Results flagged for a closer look

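In 8 of 96 groups of 4 libraries examined for the named genes, 1 library stood apart from the other 3 by Dixon's criterion, which chance alone meets in about 1 in 20 groups. Slc7a5 was at 39.9 CPM in FL replicate 4, against 3.6 to 8.55 CPM in the other FL libraries. Slc7a7 was highest in FL replicate 1, at 12.4 CPM. Slc36a1 was highest in KO replicate 4, at 19.6 CPM. Slc15a5 had reads in FL replicate 1 alone of the FL libraries, at 0.0444 CPM. Among the listed genes, Tlr13 (4.83 CPM) and Irf5 (89.3 CPM) were highest and Shmt2 (104 CPM) lowest in KO replicate 4, and Eif2s1 was lowest in FL replicate 2 (256 CPM). No cause of these values was tested.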

How the results depend on the processing

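Of 774 fits of single named genes under 17 alternatives, 658 kept the direction and side of the threshold. With the sign kept, 78 lost a call and 17 gained one. The other 21 changed sign, and some of these also lost or gained a call, as Slc6a6 and Slc38a2 did under total-count scaling. The cause of the changes below was not tested. Over all genes 4853 calls became 205 with genes detected as a covariate, 9898 under total-count scaling, 3140 under the stricter filter (10013 genes tested) and 2342 without KO replicates 2 and 3 (3397 to 5033 with 1 library left out). Transporters called higher, 3 with all libraries, were 0 with the covariate, 12 without a count filter, 18 with total-count scaling, and 0 when KO replicates 2 and 3 were left out (2 to 5 with 1 library left out). Those called lower, 6, were 2 with the covariate, 2 under the stricter filter, 2 with total-count scaling, and 3 when KO replicates 2 and 3 were left out (3 to 6 with 1 left out, fewest without KO replicate 2). The transporter median was 0.52 with total-count scaling, and leaving out KO replicates 2 and 3 gave 0.026 (-0.12 to 0.028 with 1 left out).

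Genes called in the amino acid response (8) were 2 with the covariate, 18 with total-count scaling, and 5 when KO replicates 2 and 3 were left out, and its median was 0.014 by limma-voom, 0.0051 under the stricter filter and 0.49 under total-count scaling. For mTORC1 sensing (12) these counts were 0, 27 and 3 (6 to 13 with 1 library left out), with medians of 0.081 under the stricter filter and 0.59 under total-count scaling (-0.034 to 0.027 with 1 left out). For the enzymes (13) they were 1 with the covariate and 8 without KO replicates 2 and 3, with a median of 0.27 under total-count scaling (-0.41 to -0.27 with 1 left out). For the other carriers (3) they were 0, 8 and 0, with 1 under the replicate block (1 to 2 with 1 left out) and medians of -0.0052 with the covariate and 0.48 under total-count scaling. For NOD and Toll-like receptor genes (6) they were 0, 11 and 2, with medians of 0.51 with the covariate and 0.70 under total-count scaling.

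Under total-count scaling the log2 fold change changed sign for Slc6a6 (0.049), Slc38a10 (0.48), Slc38a1 (0.37), Slc7a7 (0.31), Slc43a2 (0.52), Slc15a4 (0.51), Slc43a3 (0.46), Slc36a4 (0.14), Slc38a2 (0.41), Slc15a3 (0.13), Mios (0.0048), Lamtor5 (0.16), Lamtor1 (0.0091) and Sfxn1 (0.12). With the covariate it did so for Slc38a10 (0.094), Slc38a1 (0.19), Slc43a2 (0.11), Slc15a4 (0.15) and Slc15a3 (0.14). For Slc43a2 it was 0.029 without KO replicate 2 (-0.14 without KO replicate 4) and 0.026 without KO replicates 2 and 3.

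Libraries of the same number did not deviate together (correlations of deviations from the group means -0.034 to 0.065), so numbers were not taken as pairs. With the replicate block 4339 genes were called, with 2 transporters higher and 6 lower, and 1 of 4 FL and 1 of 4 KO libraries correlated best with their own number. Genes under about 1 CPM rest on few reads, and their folds on the count filter.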
